A study of Mus musculus with 3 samples.

Results

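The neuregulin and EGF receptor system was followed here through 9 genes of the 32285 in the feature list: the ligand genes Nrg1, Nrg2, Nrg4, Hbegf and Btc, and the receptor genes Erbb2, Erbb3, Erbb4 and Egfr. The set was selected on measured values of the same data, the higher Nrg1 level of endocardial nuclei in infarcted hearts than in sham hearts. Those endocardial Nrg1 levels are therefore given as a description and support nothing. Ligands of this family are made as membrane-bound precursors, are cut free by proteases of the ADAM group, and bind receptor tyrosine kinases on neighbouring cells. The products of Nrg1 and Nrg2 bind ErbB3 and ErbB4. HB-EGF and betacellulin bind the EGF receptor and ErbB4. ErbB2 has no ligand of its own and works as a partner. In the developing heart, neuregulin 1 from the endocardium acts on ErbB2 and ErbB4 of the muscle beneath it and is needed for trabeculation.

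Single-nucleus RNA sequencing had been done on mouse hearts taken 2 weeks after surgery. The 3 groups were myocardial infarction with dapagliflozin (MI-DAPA), myocardial infarction with NS (MI-NS) and sham surgery with NS (Sham-NS). Dapagliflozin inhibits the kidney glucose transporter SGLT2, and the labels used here do not expand NS or give strain, sex, age, dose or the number of hearts in a library. Each group had 1 library, so there was no replicate and no test, and a difference between libraries cannot be told apart from a difference between animals or pieces of tissue.

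The libraries held 8871086 UMIs (distinct RNA molecules counted) in MI-DAPA, 10113430 in MI-NS and 13873275 in Sham-NS. After filtering, 4724 nuclei in MI-DAPA, 6067 in MI-NS and 6930 in Sham-NS lay in 12 classes, written as "-like" because they were named from marker genes. Endocardial-like nuclei were few, with 82 in MI-DAPA, 128 in MI-NS and 304 in Sham-NS. All 8 endocardial markers had UMIs in each library, among them Npr3, Vwf and Foxc1, and their summed level was 7502 CPM in MI-DAPA, 5527 in MI-NS and 4888 in Sham-NS. The largest part of that sum in each library was Hmcn1, which had the same order, at 4970 CPM in MI-DAPA, 3441 in MI-NS and 2340 in Sham-NS. Vwf and Npr3 were in another order, lowest in MI-NS and highest in Sham-NS. Vwf was at 1180 CPM in MI-DAPA, 826 in MI-NS and 1371 in Sham-NS, and Npr3 at 538 CPM in MI-DAPA, 368 in MI-NS and 614 in Sham-NS. CPM is a gene's UMIs scaled to a common total for the nuclei of a class. From 32 to 39 barcodes per library also occurred in another library. Between the infarct libraries and Sham-NS, different clusters held most fibroblast-like nuclei: a cluster led by Comp and Ltbp2 had 510 nuclei in MI-DAPA, 1365 in MI-NS and 11 in Sham-NS, one led by Gsta3 and Lvrn had 130 in MI-DAPA, 30 in MI-NS and 1488 in Sham-NS, and one led by Vcan and Pi16 had 705 in MI-DAPA, 643 in MI-NS and 255 in Sham-NS. Cardiomyocyte-like nuclei came from a cluster led by Clcn1 and Mhrt with 1165 nuclei in MI-DAPA, 536 in MI-NS and 1572 in Sham-NS, and one led by Myh7 and Ankrd1 with 269 in MI-DAPA, 418 in MI-NS and 24 in Sham-NS. Brackets below hold 95% intervals that cover counting error only.

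Nrg1 lay mainly in another class than the receptor genes Erbb3, Erbb4 and Egfr. The ligand genes Hbegf and Nrg2 had most of their UMIs in cardiomyocyte-like nuclei, as Erbb3 and Erbb4 did. For Nrg2 that share was 87.9% in MI-DAPA, 77.8% in MI-NS and 66.1% in Sham-NS. In MI-DAPA, MI-NS and Sham-NS, endocardial-like nuclei held 69.0%, 74.6% and 84.9% of the Nrg1 UMIs found in named nuclei, although they were 1.74%, 2.11% and 4.39% of those nuclei. The share of Erbb4 UMIs held by cardiomyocyte-like nuclei was 96.1% in MI-DAPA, 86.4% in MI-NS and 91.8% in Sham-NS. The same share of Erbb3 UMIs was 93.6% in MI-DAPA, 71.9% in MI-NS and 89.5% in Sham-NS. Egfr was mainly in fibroblast-like nuclei, whose share of its UMIs was 89.2% in MI-DAPA, 65.0% in MI-NS and 80.7% in Sham-NS. In MI-NS a further 24.6% of Egfr UMIs were in mesothelial or epicardial-like nuclei, of which that library had 452, against 17 in MI-DAPA and 14 in Sham-NS. Erbb2 was spread widely: cardiomyocyte-like nuclei had 47.3% of its UMIs in MI-DAPA, 27.4% in MI-NS and 30.3% in Sham-NS, and fibroblast-like nuclei had 21.6% in MI-DAPA, 40.1% in MI-NS and 23.9% in Sham-NS. These shares follow the number of nuclei in each class and their depth as well as the level. Cardiomyocyte-like nuclei held 59.7% of all UMIs in named nuclei in MI-DAPA, 31.3% in MI-NS and 49.9% in Sham-NS, so their Erbb2 shares lay below these. Fibroblast-like nuclei held 18.0% in MI-DAPA, 27.1% in MI-NS and 16.6% in Sham-NS, and their Erbb2 shares lay above these.

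**Figure D1:**
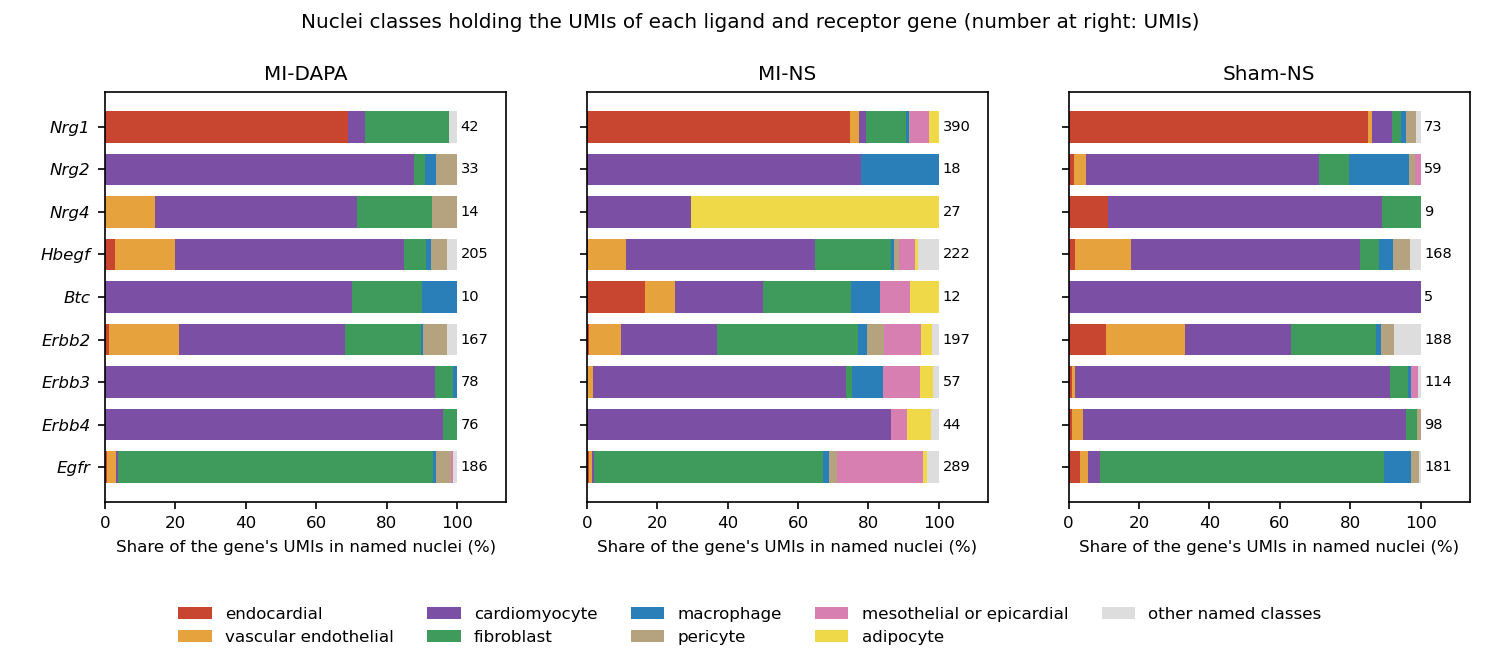
Each bar shows how the UMIs of 1 gene in named nuclei (x axis, percent) divide among nuclei classes in MI-DAPA, MI-NS and Sham-NS, with the number of UMIs at the right. Nrg1 is mostly endocardial-like, Erbb3 and Erbb4 mostly cardiomyocyte-like and Egfr mostly fibroblast-like in each library, and Btc and Nrg4 rest on 5 to 27 UMIs.

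Nrg1 (ENSMUSG00000062991) encodes neuregulin 1 and lies on the minus strand at chr8:31814551-32884029 (mm10), and no other gene in the feature list overlaps it. Its level in endocardial-like nuclei was 380 CPM in MI-DAPA (29 UMIs, interval 255 to 546), 1879 CPM in MI-NS (291 UMIs, 1669 to 2108) and 170 CPM in Sham-NS (62 UMIs, 130 to 218). The 3 intervals did not overlap: MI-NS was highest, MI-DAPA lay between, and Sham-NS was lowest. The log2 ratio of CPM was 3.46 (3.07 to 3.88) for MI-NS against Sham-NS and 1.17 (0.47 to 1.82) for MI-DAPA against Sham-NS. Set against MI-NS, MI-DAPA had a log2 ratio of -2.28 (-2.91 to -1.75), and this comparison shares the MI-NS library with the first. A gene was called measurable where the pair of libraries compared held 50 or more of its UMIs in the class. Nrg1 had the 3rd highest ratio of 2149 measurable genes for MI-NS against Sham-NS and the 7th lowest of 751 for MI-DAPA against MI-NS. Of all measurable genes in these nuclei, 11.6% differed at least 2-fold in the first comparison (5.21% higher and 6.42% lower) and 10.3% in the second (5.33% higher and 4.93% lower), and Nrg1 was the 1 member that could be read in either.

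Both the number of nuclei with Nrg1 and the number of UMIs in them were higher in MI-NS. Nrg1 had a UMI in 20.7% of endocardial-like nuclei in MI-DAPA (12.6 to 31.1), 61.7% in MI-NS (52.7 to 70.2) and 15.5% in Sham-NS (11.6 to 20.0). With each nucleus thinned to 500 UMIs, which every deposited barcode had, these shares were 12.2% in MI-DAPA, 47.7% in MI-NS and 8.88% in Sham-NS. Median depths were 782 UMIs in MI-DAPA, 974 in MI-NS and 954 in Sham-NS. There were 21 nuclei with 5 or more Nrg1 UMIs in MI-NS and 0 in the other libraries, and the highest count in a nucleus was 4 in MI-DAPA, 20 in MI-NS and 4 in Sham-NS. The 10 nuclei with most Nrg1 held 22 of the 29 UMIs in MI-DAPA, 98 of 291 in MI-NS and 24 of 62 in Sham-NS. Cardiomyocyte-like nuclei were deeper (medians 2262 UMIs in MI-DAPA, 1928 in MI-NS and 2216 in Sham-NS). In them Nrg1 had a UMI in 0.139% in MI-DAPA, 0.839% in MI-NS and 0.251% in Sham-NS, below the endocardial-like shares. Free RNA can also give such UMIs, and its part in any class was not tested.

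**Figure D2:**
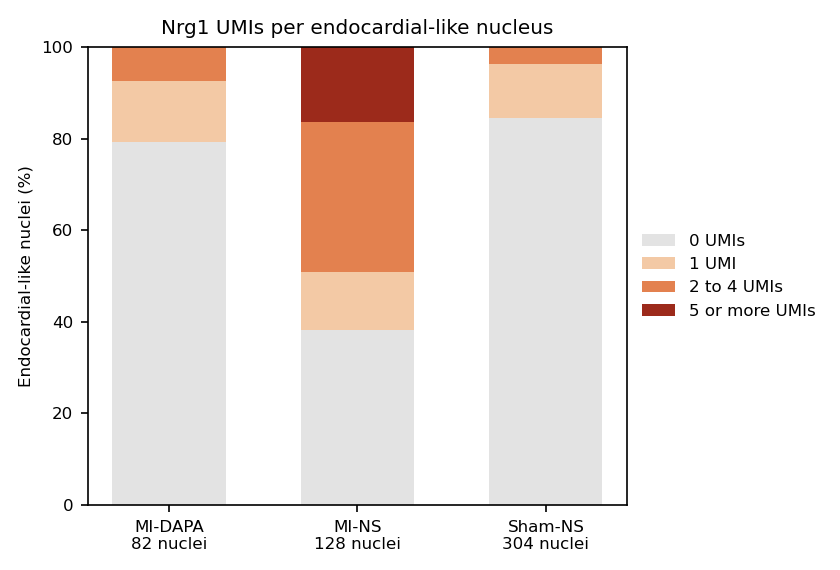
Stacked bars give the percent of endocardial-like nuclei with 0, 1, 2 to 4 and 5 or more Nrg1 UMIs in MI-DAPA (82 nuclei), MI-NS (128) and Sham-NS (304). Nuclei with 5 or more UMIs occur in MI-NS (21 nuclei), and the bars for MI-DAPA and Sham-NS have 65 and 257 nuclei at 0.

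Other measures in the same endocardial-like nuclei differed between the libraries too. All 12 fibroblast markers had UMIs in MI-NS and Sham-NS and 11 in MI-DAPA, with summed levels of 1548 CPM in MI-DAPA, 4984 in MI-NS and 2817 in Sham-NS. The collagen gene Col1a1 was at 131 CPM in MI-DAPA, 588 in MI-NS and 46.6 in Sham-NS. A selection made after the data had been seen took the nuclei with no UMI of Col1a1, Col1a2, Col3a1, Dcn or Postn. In those nuclei Nrg1 was at 375 CPM in MI-DAPA (51 nuclei), 3049 in MI-NS (36 nuclei) and 219 in Sham-NS (212 nuclei). Cardiomyocyte markers summed to 5128 CPM in MI-DAPA, 2628 in MI-NS and 4553 in Sham-NS, and 10 of 11 had UMIs in MI-NS against 11 in the others. The atrial peptide gene Nppa had 1 UMI in MI-DAPA, 25 in MI-NS and 1 in Sham-NS. The clock gene Per2 was at 26.2 CPM in MI-DAPA, 45.2 in MI-NS and 433 in Sham-NS, and Arntl at 52.5 CPM in MI-DAPA, 64.6 in MI-NS and 16.5 in Sham-NS. Of the 8 endocardial markers, 2 were highest in MI-NS as Nrg1 was: Cdh11, at 275 CPM in MI-DAPA, 387 in MI-NS and 181 in Sham-NS, and Tmem108, at 157 CPM in MI-DAPA, 252 in MI-NS and 49.4 in Sham-NS. Another 4 were lowest in MI-NS, Npr3, Vwf, Cytl1 and Foxc1, with Npr3 at 538 CPM in MI-DAPA, 368 in MI-NS and 614 in Sham-NS. Outside the marker list, Smoc1 was at 118 CPM in MI-DAPA, 381 in MI-NS and 90.5 in Sham-NS, and Plvap at 118 CPM in MI-DAPA, 194 in MI-NS and 46.6 in Sham-NS. The part of markers of other cells, of clock phase and of the low number of nuclei in the Nrg1 difference was not tested.

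Outside the endocardium Nrg1 was low. In fibroblast-like nuclei it was at 9.04 CPM in MI-DAPA (10 UMIs, 4.34 to 16.6), 24.6 CPM in MI-NS (45 UMIs, 17.9 to 32.9) and 1.51 CPM in Sham-NS (2 UMIs, 0.183 to 5.45). MI-NS was highest and its interval overlapped neither of the others. The log2 ratio for MI-DAPA against MI-NS was -1.39 (-2.60 to -0.43), and the 47 UMIs of MI-NS and Sham-NS together were too few for that ratio to be read as measurable. Of the 45 UMIs in MI-NS, 40 were in the Comp and Ltbp2 cluster (32.6 CPM), which also held 8 of the 10 in MI-DAPA (18.0 CPM) and was nearly absent from Sham-NS. Vascular endothelial-like nuclei had 0 UMIs in MI-DAPA, which allows up to 4.61 CPM, 10 in MI-NS (14.7 CPM) and 1 in Sham-NS (0.867 CPM). In MI-NS, 5 of those 10 came from the 75 nuclei of the cluster led by Sema3g and Sox17, at 98.6 CPM (32.0 to 230). Mesothelial or epicardial-like nuclei of MI-NS held 21 Nrg1 UMIs in 19 nuclei (31.9 CPM, 19.7 to 48.7). The 11 UMIs in adipocyte-like nuclei of MI-NS all lay in 1 nucleus.

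**Figure D3:**
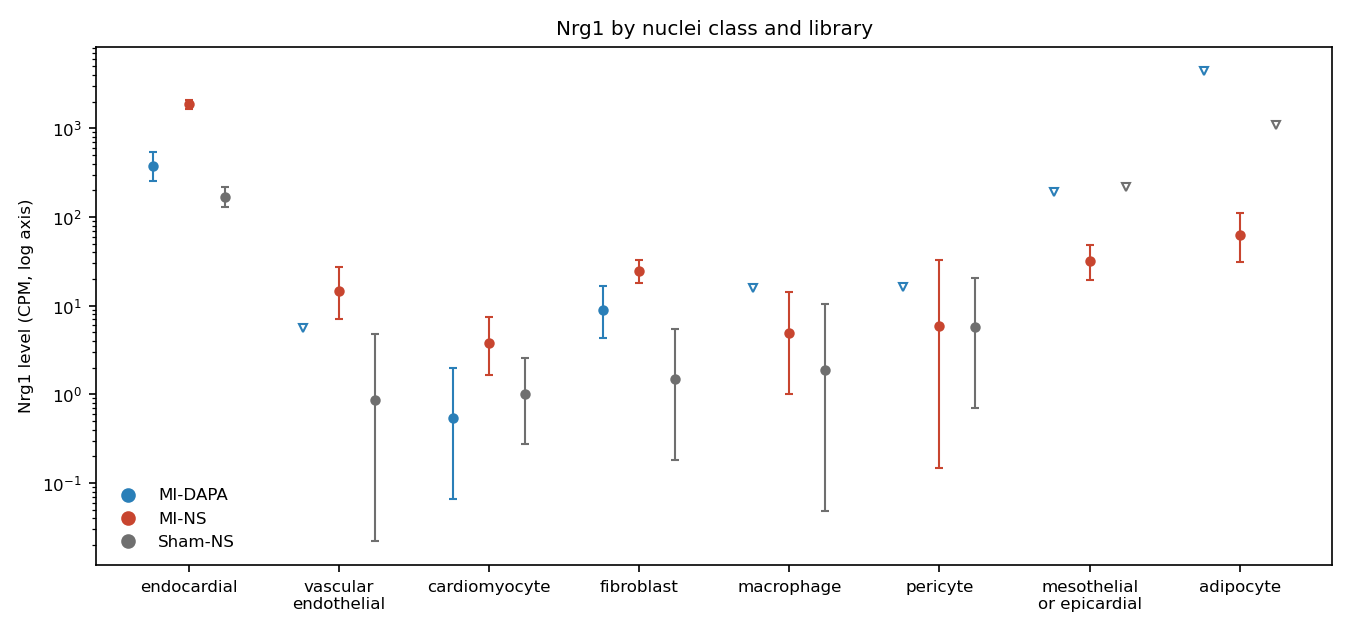
Points are Nrg1 levels in CPM on a log axis by nuclei class in MI-DAPA, MI-NS and Sham-NS, with 95% Poisson intervals, and open triangles mark the upper limit where a library had 0 UMIs. Endocardial-like nuclei stand at 380 CPM in MI-DAPA, 1879 in MI-NS and 170 in Sham-NS, and every other class with a Nrg1 UMI lies below 100 CPM.

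Hbegf, the gene of heparin-binding EGF-like growth factor, had most of its UMIs in cardiomyocyte-like nuclei: 64.9% in MI-DAPA, 53.6% in MI-NS and 64.9% in Sham-NS. Those nuclei held 59.7% of all UMIs in named nuclei in MI-DAPA, 31.3% in MI-NS and 49.9% in Sham-NS. In MI-DAPA the Hbegf level was higher in vascular endothelial-like nuclei, as given below. On 6 and 5 UMIs, it was also higher there in endocardial-like (76251 UMIs in all) and smooth muscle-like nuclei (60300 UMIs in all). The level in cardiomyocyte-like nuclei was 36.2 CPM in MI-DAPA (133 UMIs, 30.3 to 42.9), 56.4 CPM in MI-NS (119 UMIs, 46.7 to 67.5) and 27.3 CPM in Sham-NS (109 UMIs, 22.4 to 33.0). MI-NS was highest, with an interval above both others, and the intervals of MI-DAPA and Sham-NS overlapped. The log2 ratio was 1.04 (0.66 to 1.43) for MI-NS against Sham-NS, and Hbegf was the 1 member of 5 measurable that differed at least 2-fold there, where 9.63% of all 8218 measurable genes did. For MI-DAPA against MI-NS the log2 ratio was -0.64 (-1.01 to -0.27), and 0 of 4 measurable members passed 2-fold, against 4.9% of 8058 genes. Within the cluster led by Myh7 and Ankrd1, Hbegf was at 53.6 CPM in MI-DAPA and 74.7 CPM in MI-NS, and within the cluster led by Clcn1 and Mhrt it was at 29.7, 35.5 and 27.1 CPM in MI-DAPA, MI-NS and Sham-NS. Without the Myh7 and Ankrd1 cluster the log2 ratio for MI-NS against Sham-NS was 0.40, so the 2-fold call rests on that cluster, and with DESeq2 size factors in place of total UMIs it was 0.80, also under 2-fold.

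In fibroblast-like nuclei Hbegf was at 11.8 CPM in MI-DAPA (13 UMIs, 6.26 to 20.1), 26.2 CPM in MI-NS (48 UMIs, 19.4 to 34.8) and 6.79 CPM in Sham-NS (9 UMIs, 3.11 to 12.9). Again MI-NS was highest, and its interval lay above that of Sham-NS and overlapped that of MI-DAPA. The log2 ratios were 1.89 (0.91 to 3.16) for MI-NS against Sham-NS and -1.12 (-2.17 to -0.25) for MI-DAPA against MI-NS. In the first comparison 1 of 3 measurable members passed 2-fold, against 12.8% of 8458 genes, and in the second 2 of 4 did, Nrg1 and Hbegf, both lower, against 4.6% of 8267 genes. The Comp and Ltbp2 cluster held 43 of the 48 Hbegf UMIs in MI-NS. In the Vcan and Pi16 cluster alone, with 6 Hbegf UMIs in MI-DAPA and 4 in MI-NS, the log2 ratio was 0.48 (-1.54 to 2.80), so that the sign turned and the 2-fold call ended. Hbegf in vascular endothelial-like nuclei had another order, with 53.8 CPM in MI-DAPA (35 UMIs, 37.5 to 74.8), 35.2 CPM in MI-NS (24 UMIs, 22.5 to 52.4) and 23.4 CPM in Sham-NS (27 UMIs, 15.4 to 34.1). Each interval overlapped that of its neighbour in this order, and MI-DAPA lay above Sham-NS. Neither measurable member of that class passed 2-fold in either main comparison, where 9.11% of 6183 genes did for MI-NS against Sham-NS and 4.18% of 5211 for MI-DAPA against MI-NS. Endocardial-like nuclei had 6 Hbegf UMIs among 76251 in MI-DAPA, 1 among 154888 in MI-NS and 3 among 364592 in Sham-NS. The level there was thus highest in MI-DAPA, on too few UMIs to be measurable.

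The other ligand genes were sparse. Nrg2, the gene of neuregulin 2, was at 7.90 CPM in cardiomyocyte-like nuclei of MI-DAPA (29 UMIs, 5.29 to 11.3), 6.64 in MI-NS (14 UMIs, 3.63 to 11.1) and 9.79 in Sham-NS (39 UMIs, 6.96 to 13.4), with intervals that all overlapped. In macrophage-like nuclei it had 1 UMI in MI-DAPA, 4 in MI-NS and 10 in Sham-NS, or 4.27 CPM in MI-DAPA, 6.55 in MI-NS and 18.9 in Sham-NS, too few to separate the libraries. Nrg4, the gene of neuregulin 4, a ligand known from fat tissue, had 14, 27 and 9 UMIs in named nuclei of MI-DAPA, MI-NS and Sham-NS. Of the 27 in MI-NS, 19 were in 15 of the 86 adipocyte-like nuclei, at 108 CPM (65.1 to 169), while the other libraries had 1 and 2 such nuclei. In cardiomyocyte-like nuclei Nrg4 was at 2.18 CPM in MI-DAPA (8 UMIs), 3.79 in MI-NS (8 UMIs) and 1.76 in Sham-NS (7 UMIs). Btc, the gene of betacellulin, had 10 UMIs in MI-DAPA, 12 in MI-NS and 5 in Sham-NS in named nuclei, and no class reached a level that could be compared.

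Among the receptors, Erbb4 (chr1:68032186-69108059, minus strand, mm10) encodes the receptor that binds neuregulin 1 and signals through its own kinase. In cardiomyocyte-like nuclei it was at 19.9 CPM in MI-DAPA (73 UMIs, 15.6 to 25.0), 18.0 CPM in MI-NS (38 UMIs, 12.8 to 24.7) and 22.6 CPM in Sham-NS (90 UMIs, 18.2 to 27.7). The 3 intervals overlapped, and the log2 ratio was -0.32 (-0.91 to 0.24) for MI-NS against Sham-NS and 0.13 (-0.44 to 0.75) for MI-DAPA against MI-NS. These intervals leave room for a difference of nearly 2-fold downward in the first comparison. Within MI-NS, Erbb4 was at 10.7 CPM in the Myh7 and Ankrd1 cluster (12 UMIs, 5.52 to 18.7) and 26.4 CPM in the Clcn1 and Mhrt cluster (26 UMIs, 17.2 to 38.7), and in MI-DAPA at 16.9 and 21.0 CPM, with overlapping intervals in both libraries. Without the Myh7 and Ankrd1 cluster the log2 ratio for MI-NS against Sham-NS was 0.26, with the opposite sign. Other classes had at most 3 Erbb4 UMIs in a library. The 3 in adipocyte-like nuclei of MI-NS were 6.82% of its Erbb4 UMIs, in a class with 2.60% of all UMIs in named nuclei. Cardiomyocyte-like nuclei of MI-NS had 86.4% and 31.3%, so the levels of these classes were close, on 3 UMIs in the first. Endocardial-like nuclei had 0 in MI-DAPA, which allows up to 39.3 CPM, 0 in MI-NS, which allows up to 19.4 CPM, and 1 in Sham-NS. One gene of the feature list, Gm16076, overlaps Erbb4 on the same strand, and how reads in the overlap were counted is not given in the sources used here.

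Erbb3 encodes a receptor that binds neuregulins but has little kinase activity of its own. Its level in cardiomyocyte-like nuclei was 19.9 CPM in MI-DAPA (73 UMIs, 15.6 to 25.0), 19.4 CPM in MI-NS (41 UMIs, 13.9 to 26.4) and 25.6 CPM in Sham-NS (102 UMIs, 20.9 to 31.1). The intervals overlapped, and the log2 ratio was -0.39 (-0.96 to 0.14) for MI-NS against Sham-NS and 0.03 (-0.54 to 0.62) for MI-DAPA against MI-NS. With nuclei thinned to 500 and 1000 UMIs the ratio for MI-DAPA against MI-NS was -0.84 (-2.22 to 0.49) and -0.62 (-1.58 to 0.35). In fibroblast-like nuclei, which were shallower (medians 744 UMIs in MI-DAPA, 768 in MI-NS and 700 in Sham-NS), Erbb3 had 4 UMIs in MI-DAPA, 1 in MI-NS and 6 in Sham-NS, or 3.62 CPM in MI-DAPA, 0.547 in MI-NS and 4.53 in Sham-NS. The share of nuclei with an Erbb3 UMI in cardiomyocyte-like nuclei was 4.88% in MI-DAPA, 4.09% in MI-NS and 5.45% in Sham-NS. In fibroblast-like nuclei it was 0.296% in MI-DAPA, 0.0482% in MI-NS and 0.342% in Sham-NS. Thinned to 500 UMIs, the shares were 0.697% in MI-DAPA, 1.26% in MI-NS and 1.5% in Sham-NS in the first class and 0.296% in MI-DAPA, 0.0482% in MI-NS and 0.228% in Sham-NS in the second.

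Erbb2, the partner receptor without a ligand, lies at chr11:98412470-98437716 on the plus strand (mm10). In cardiomyocyte-like nuclei it was at 21.5 CPM in MI-DAPA (79 UMIs, 17.0 to 26.8), 25.6 CPM in MI-NS (54 UMIs, 19.2 to 33.4) and 14.3 CPM in Sham-NS (57 UMIs, 10.8 to 18.5). The interval of MI-NS lay above that of Sham-NS, and that of MI-DAPA overlapped both. The log2 ratio was 0.84 (0.28 to 1.40) for MI-NS against Sham-NS and -0.25 (-0.77 to 0.28) for MI-DAPA against MI-NS, both under 2-fold. With nuclei thinned to 500 UMIs the ratio for MI-DAPA against MI-NS was 0.82 (-0.35 to 2.25), on 22 UMIs in MI-DAPA and 8 in MI-NS, with the opposite sign. Within the Clcn1 and Mhrt cluster alone the levels were 19.5 CPM in MI-DAPA, 30.4 in MI-NS and 14.6 in Sham-NS, again highest in MI-NS. In fibroblast-like nuclei Erbb2 was at 32.6 CPM in MI-DAPA (36 UMIs), 43.2 in MI-NS (79 UMIs) and 34.0 in Sham-NS (45 UMIs), with overlapping intervals. The log2 ratio there for MI-NS against Sham-NS was 0.34 (-0.20 to 0.91), but 1.62 (0.11 to 4.18) with nuclei thinned to 1000 UMIs, where MI-NS had 27 UMIs and Sham-NS had 3, and -0.38 (-1.56 to 0.99) in the Vcan and Pi16 cluster alone. The ratio of MI-DAPA to MI-NS there was -0.40 (-1.02 to 0.18), and 0.22 (-0.71 to 1.18) in that cluster alone. In vascular endothelial-like nuclei it was at 50.7 CPM in MI-DAPA (33 UMIs, 34.9 to 71.2), 26.4 CPM in MI-NS (18 UMIs, 15.6 to 41.7) and 36.4 CPM in Sham-NS (42 UMIs, 26.2 to 49.2), again with overlap. The log2 ratio there was 0.93 (0.07 to 1.86) for MI-DAPA against MI-NS, and -0.90 (-6.91 to 1.81) with nuclei thinned to 1000 UMIs, which left 1 Erbb2 UMI in MI-DAPA and 5 in MI-NS. For MI-NS against Sham-NS it was -0.44 (-1.35 to 0.36), and 0.65 (-1.63 to 3.42) with the same thinning. Endocardial-like nuclei had 2 UMIs in MI-DAPA (26.2 CPM), 1 in MI-NS (6.46 CPM) and 20 in Sham-NS (54.9 CPM), and the intervals of MI-NS (0.163 to 36.0) and Sham-NS (33.5 to 84.7) overlapped slightly. Mien1 in the feature list overlaps Erbb2 on the other strand.

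Egfr, the receptor for HB-EGF and betacellulin, lies at chr11:16752203-16918158 on the plus strand (mm10), with Egfros on the other strand. In fibroblast-like nuclei it was at 150 CPM in MI-DAPA (166 UMIs, 128 to 175), 103 CPM in MI-NS (188 UMIs, 88.6 to 119) and 110 CPM in Sham-NS (146 UMIs, 93.1 to 130). MI-DAPA was highest and its interval lay above that of MI-NS, while those of MI-NS and Sham-NS overlapped. The log2 ratio was 0.55 (0.24 to 0.86) for MI-DAPA against MI-NS and -0.10 (-0.42 to 0.22) for MI-NS against Sham-NS. In the Vcan and Pi16 cluster, which all libraries had, Egfr was at 136 CPM in MI-DAPA (77 UMIs, 107 to 170), 104 CPM in MI-NS (57 UMIs, 78.9 to 135) and 63.6 CPM in Sham-NS (13 UMIs, 33.9 to 109). There the log2 ratio for MI-NS against Sham-NS was 0.67, with the opposite sign to that of the whole class. In the Comp and Ltbp2 cluster Egfr was at 162 CPM in MI-DAPA and 106 CPM in MI-NS, and in the Gsta3 and Lvrn cluster at 120 CPM in Sham-NS. Mesothelial or epicardial-like nuclei of MI-NS had 108 CPM (71 UMIs, 84.1 to 136). Cardiomyocyte-like nuclei had 1 Egfr UMI in MI-DAPA, 2 in MI-NS and 6 in Sham-NS, or 0.272 CPM in MI-DAPA, 0.948 in MI-NS and 1.51 in Sham-NS. Macrophage-like nuclei had 2 in MI-DAPA, 5 in MI-NS and 14 in Sham-NS, or 8.54 CPM in MI-DAPA, 8.19 in MI-NS and 26.5 in Sham-NS, and no member was measurable in that class.

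**Figure D4:**
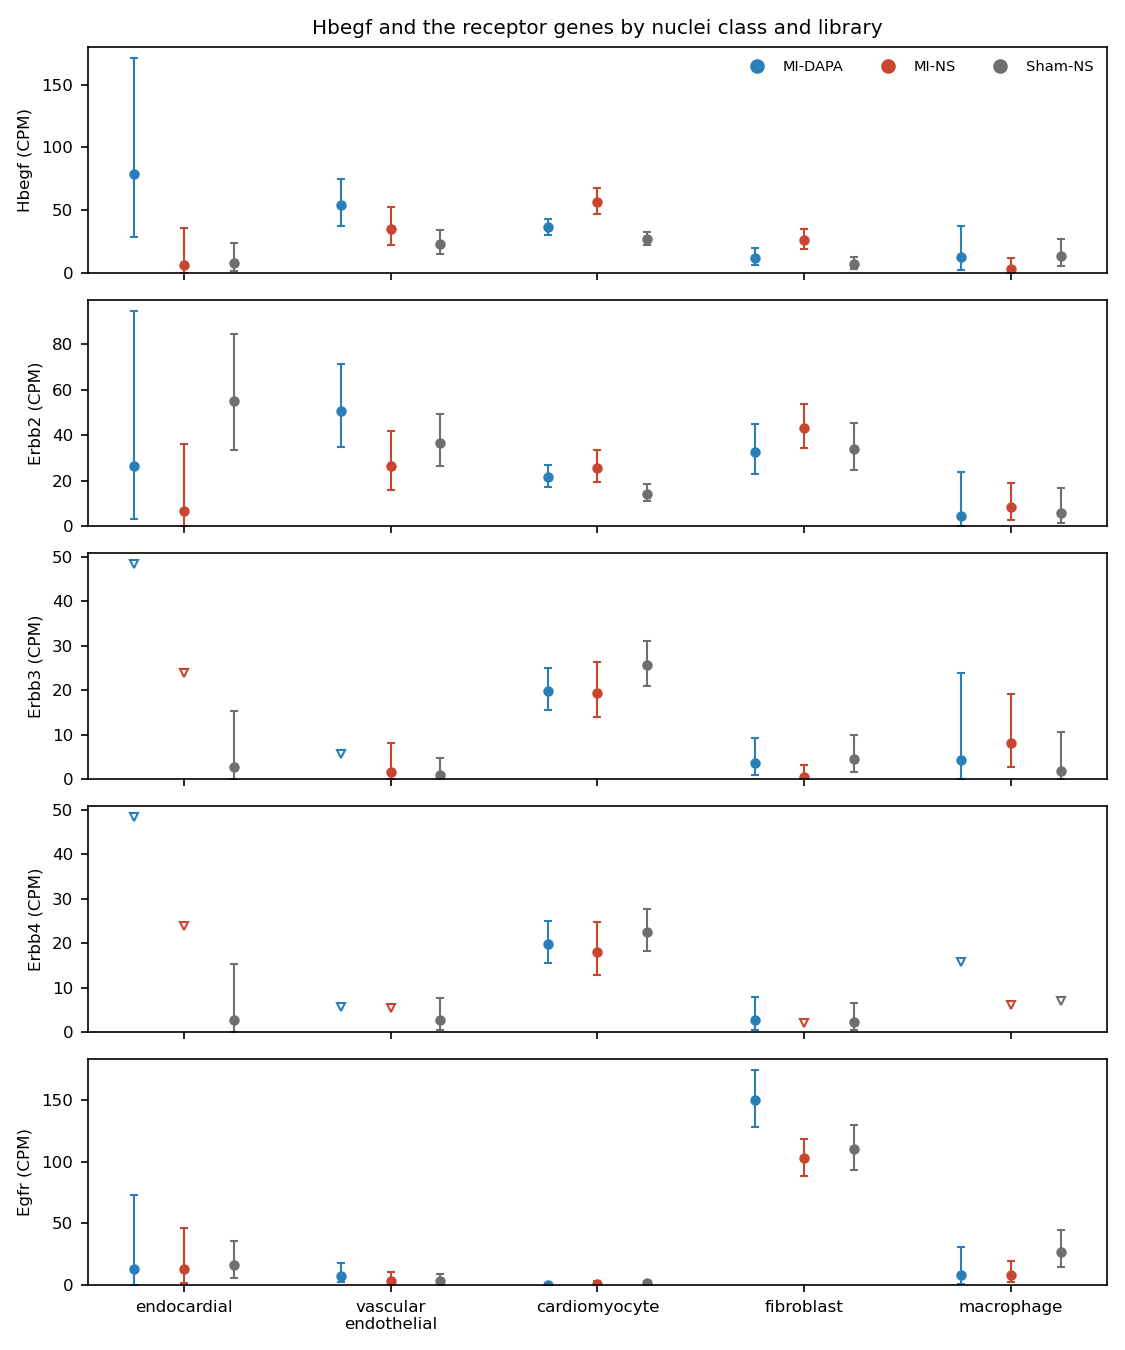
Levels of Hbegf, Erbb2, Erbb3, Erbb4 and Egfr in CPM (y axes, each from 0) in 5 nuclei classes of MI-DAPA, MI-NS and Sham-NS, with 95% Poisson intervals and open triangles for the upper limit at 0 UMIs. Erbb3 and Erbb4 stand between 18.0 and 25.6 CPM in cardiomyocyte-like nuclei of all 3 libraries, and Egfr stands at 150 CPM in MI-DAPA, 103 in MI-NS and 110 in Sham-NS in fibroblast-like nuclei.

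Among members measurable in the 5 classes compared, the ligand genes that differed at least 2-fold were Nrg1 and Hbegf, and 0 receptor genes did so in either comparison. Endocardial Nrg1 is the value the set was selected on, so its place in this count supports nothing. Measurable members for MI-NS against Sham-NS numbered 1 in endocardial-like, 2 in vascular endothelial-like, 5 in cardiomyocyte-like, 3 in fibroblast-like and 0 in macrophage-like nuclei. With so few, beside the shares over all measurable genes given below, the 0 does not set receptors apart from ligands. Below the minimum of 50 UMIs, for MI-NS against Sham-NS, the log2 ratio was -2.54 (-8.46 to -0.44) for Erbb2 in endocardial-like nuclei, on 21 UMIs, and -2.58 (-8.57 to -0.01) for Erbb3 in fibroblast-like nuclei, on 7 UMIs. Other such pairs passed 2-fold too. Among them, in macrophage-like nuclei, Egfr was lower in MI-NS, with 5 UMIs against 14 in Sham-NS. Erbb3 was higher there, with 5 UMIs against 1. The 75 other genes of the pathway, in 5 lists, were read in the same way. Over the 5 classes, 26 of 203 measurable pairs of gene and class passed 2-fold for MI-NS against Sham-NS, but 12 of 133 and 10 of 67 with nuclei thinned to 500 and 1000 UMIs. For MI-DAPA against MI-NS 18 of 182 did, but 5 of 116 and 7 of 64 with the same thinning and 9 of 113 with nuclei classed by marker level. Among all measurable genes, 7.46% to 12.8% by class passed 2-fold in the first comparison and 4.18% to 10.3% in the second. No such share was counted for thinned nuclei or for nuclei classed by marker level. In cardiomyocyte-like nuclei, 7 of 50 measurable pathway genes were at least 2-fold higher and 2 lower for MI-NS against Sham-NS, with a median log2 ratio of 0.34. Over all measurable genes 7.37% were higher and 2.25% lower, with a median of 0.13. Of the 5 measurable ERK feedback and target genes, which follow receptor signals among many others, 4 were higher: Fos, Dusp5, Phlda1 and Ccnd1. Fos, an immediate early transcription factor, was at 6.27 CPM in MI-DAPA, 31.3 in MI-NS and 3.51 in Sham-NS (log2 ratio 3.12 for MI-NS against Sham-NS). Phlda1 was at 54.2 CPM in MI-DAPA, 109 in MI-NS and 33.1 in Sham-NS. The protease gene Adam19, which can cut neuregulin precursors, was at 65.9 CPM in MI-DAPA, 144 in MI-NS and 11.0 in Sham-NS (log2 ratio 3.69, 3.24 to 4.19). Ptpn11, the phosphatase SHP2 that passes receptor signals to Ras, was at 79.3 CPM in MI-DAPA, 48.4 in MI-NS and 172 in Sham-NS (log2 ratio -1.82, -2.14 to -1.52), and Pik3r1, a regulatory subunit of PI3-kinase, at 105 CPM in MI-DAPA, 100.5 in MI-NS and 264 in Sham-NS. Egf, the ligand that names the family, was at 37.9 CPM in MI-DAPA, 32.2 in MI-NS and 23.3 in Sham-NS with a log2 ratio of 0.47 (-0.01 to 0.93).

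For MI-DAPA against MI-NS in cardiomyocyte-like nuclei, 8 of 52 measurable pathway genes were at least 2-fold lower and 0 higher, with a median of -0.32. Over all measurable genes 4.52% were lower and 0.385% higher, with a median of -0.16. The 8 were Adam19, Timp3, Spry2, Spred1, Dusp5, Fos, Myc and Phlda1. Timp3, an inhibitor of ADAM proteases, was at 5.18 CPM in MI-DAPA, 23.7 in MI-NS and 12.8 in Sham-NS, and the feedback inhibitor Spry2 at 6.27 CPM in MI-DAPA, 16.1 in MI-NS and 12.8 in Sham-NS. These sums hold both cardiomyocyte clusters, and MI-NS took 418 of its 954 nuclei from the Myh7 and Ankrd1 cluster, against 269 of 1434 in MI-DAPA and 24 of 1596 in Sham-NS, whose part in these counts was not tested.

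In fibroblast-like nuclei, 8 of 59 measurable pathway genes were at least 2-fold higher and 1 lower for MI-NS against Sham-NS, beside 8.9% and 3.88% of all measurable genes. Etv4, a transcription factor downstream of ERK, was at 39.8 CPM in MI-DAPA, 67.2 in MI-NS and 10.6 in Sham-NS (log2 ratio 2.62 for MI-NS against Sham-NS), and Egr1 at 107 CPM in MI-DAPA, 196 in MI-NS and 48.3 in Sham-NS. For MI-DAPA against MI-NS, 5 of 59 were lower and 0 higher, beside 3.5% and 1.1% of all measurable genes. The 5 were Timp3, at 96.8 CPM in MI-DAPA, 262 in MI-NS and 105 in Sham-NS, Braf, Pik3r1, Pik3r3 and Fos. Errfi1, which binds and blocks the EGF receptor kinase, had the highest ratio of that comparison, 0.94 (0.46 to 1.44), with 70.5 CPM in MI-DAPA, 36.6 in MI-NS and 53.6 in Sham-NS. These sums hold all fibroblast clusters, whose make-up differed between the libraries. The Comp and Ltbp2 cluster had 510 nuclei in MI-DAPA, 1365 in MI-NS and 11 in Sham-NS. The Gsta3 and Lvrn cluster had 130 in MI-DAPA, 30 in MI-NS and 1488 in Sham-NS. The part of these clusters in the counts and levels was not tested.

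In endocardial-like nuclei 14 pathway genes were measurable for MI-NS against Sham-NS, and 2 were at least 2-fold higher and 0 lower, beside 5.21% and 6.42% of all measurable genes. Egr1 was at 39.3 CPM in MI-DAPA (3 UMIs), 278 in MI-NS (43 UMIs) and 68.6 in Sham-NS (25 UMIs), and the adaptor gene Shc1 at 131 CPM in MI-DAPA, 207 in MI-NS and 82.3 in Sham-NS. The comparison of MI-DAPA with MI-NS had 2 measurable pathway genes, of which Usp8, a deubiquitinase that acts on ErbB receptors taken into the cell, was higher in MI-DAPA (341 CPM in MI-DAPA, 168 in MI-NS and 203 in Sham-NS), beside 5.33% of all measurable genes.

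In vascular endothelial-like nuclei 2 of 47 were higher for MI-NS against Sham-NS and 1 was lower, Socs4, beside 6.49% higher and 2.62% lower among all measurable genes. The higher ones were Egr1, with 157 CPM in MI-DAPA, 214 in MI-NS and 39.9 in Sham-NS, and Adam19, with 172 CPM in MI-DAPA, 207 in MI-NS and 47.7 in Sham-NS. Between MI-DAPA and MI-NS 1 of 42 was lower in MI-DAPA, Socs5, at 26.1 CPM in MI-DAPA, 67.4 in MI-NS and 43.4 in Sham-NS, and 0 were higher, beside 3.49% and 0.691%. In macrophage-like nuclei 3 of 33 were higher, Fos, Gab2 and Lrig2, and 0 lower, beside 5.27% and 2.19% of 4703 genes and 7.46% in either direction. Gab2, a docking protein for growth factor and cytokine receptors, was at 42.7 CPM in MI-DAPA, 88.5 in MI-NS and 28.4 in Sham-NS. Between MI-DAPA and MI-NS 3 of 27 were lower in MI-DAPA, Pik3r1, Pik3cb and Nras, and 0 higher, beside 4.24% and 1.39% of 3750 genes and 5.63% in either direction.

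The genes most like 3 of the members in level were ranked by Pearson's r of log2(CPM + 1) over 28 units of class and library with at least 50 nuclei, among 9796 genes with at least 200 UMIs. Units of 1 library share its depth, so r is a description. For Nrg1 they were Epha7 (r = 0.815), Npr3 (0.774), Tuft1 (0.766), Fgfr2 (0.761) and Plagl1 (0.738). In endocardial-like nuclei of MI-DAPA, MI-NS and Sham-NS, Epha7 was at 302, 297 and 96.0 CPM and Plagl1 at 302, 588 and 313 CPM. For Erbb4 the genes were Vegfa (0.804), Tmem150a, Mfn1, Rasa2 and Slc22a23, and for Egfr Eef1b2 (0.753), 1110051M20Rik, Uba6, Nol12 and Lrrk1.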

How the data were processed

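Per the labels' protocols, nuclei were purified on a density cushion and made into 3' single-nucleus libraries. The authors deposited UMI count matrices, made with Cell Ranger 6.0.1 per the file headers. Per the submitters' processing notes the build was mm10 and Seurat was used. Which annotation release was used, and whether reads in introns were counted, is not given in the sources used here.

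Nuclei with at least 300 genes and at most 10% mitochondrial UMIs were kept: 5372 in MI-DAPA, 7065 in MI-NS and 8296 in Sham-NS, with median depths of 831 UMIs in MI-DAPA, 851 in MI-NS and 790 in Sham-NS. Scrublet called 2 doublets in MI-DAPA, 1 in MI-NS and 0 in Sham-NS and so did not work. Mixed clusters, those whose doublet scores had a median above 0.1, were not used (10.5% of nuclei in MI-DAPA, 12.1% in MI-NS and 15.9% in Sham-NS). Leiden clusters (scanpy 1.11.5, leidenalg 0.10.2, resolution 1.0, 30 components, 15 neighbours, 2000 variable genes without the 9 members) were named from 22 marker sets. Nrg1 was not a marker. The details of naming (markers among the top 10 genes by fold that were present in at least 10% of nuclei, and a cluster led by cell cycle genes left unnamed) were settled after the data had been seen.

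UMIs were summed per class and library and scaled to CPM. Log2 ratios had 0.5 UMI added to each sum. The 95% intervals are exact: Poisson for a level, conditional binomial for a ratio and Clopper-Pearson for a share. A level of 0 UMIs is given with a floor of 3 counts. The calculation was tested on simulated data. These were Poisson sums, the model that the intervals assume, so they checked the calculation and not the spread between nuclei, animals or libraries. The members and lists were chosen with earlier results of these data known. Besides the members, the pathway genes named were taken from the 3 highest and 3 lowest measurable ratios per class and comparison, and from genes counted past 2-fold. The values of 1 such gene are not reported here. Errors between animals could not be estimated. Coordinates are from the GENCODE annotation of the same build.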

Additional observations from a re-analysis of the deposited data

Results flagged for a closer look

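Members also had UMIs in nuclei that no comparison used, above the level in Sham-NS. In the clusters left out as mixed, Nrg1 was at 27.6 CPM in MI-NS (50 UMIs), against 6.56 CPM in Sham-NS (16 UMIs). Of those 50 UMIs, 44 were in 380 nuclei of a mixed cluster led by Sfrp2 and Igfbp7. That cluster has both vascular endothelial and fibroblast markers. In barcodes that failed the filters, Nrg1 was at 17.4 CPM in MI-NS (23 UMIs), against 5.90 CPM in Sham-NS (20 UMIs). Hbegf in the mixed clusters was at 44.2 CPM in MI-DAPA and 33.6 CPM in MI-NS, against 18.4 CPM in Sham-NS. Btc in barcodes that failed the filters was at 3.49 CPM in MI-DAPA, against 0 UMIs in Sham-NS.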

How the results depend on the processing

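No paired analysis was possible because each group has 1 library. Over 13 alternatives each, Nrg1 in endocardial-like nuclei kept its direction and stayed past 2-fold, with log2 ratios from 3.19 to 3.79 for MI-NS against Sham-NS and from -2.98 to -2.13 for MI-DAPA against MI-NS. The value of -2.98 came from nuclei without collagen, Dcn or Postn UMIs, an alternative added after the data had been seen. All these alternatives reuse the same libraries, and the members were selected on the endocardial Nrg1 levels of MI-NS and Sham-NS. The kept direction therefore supports nothing beyond the description above. Other values moved beyond their counting interval, and the cause was not tested. Erbb4 in cardiomyocyte-like nuclei for MI-NS against Sham-NS was 0.26 without the Myh7 and Ankrd1 cluster, against -0.32. Erbb2 there for MI-DAPA against MI-NS was 0.82 with nuclei thinned to 500 UMIs, against -0.25. Egfr in fibroblast-like nuclei for MI-NS against Sham-NS was 0.48 with nuclei thinned to 1000 UMIs and 0.67 in the Vcan and Pi16 cluster alone, against -0.10. In fibroblast-like nuclei the Hbegf ratio of MI-DAPA to MI-NS was 0.48 in that cluster alone, against -1.12. The endocardial-like share of Nrg1 UMIs with mixed clusters kept was 66.6% in MI-NS and 73.8% in Sham-NS, and with nuclei classed by marker level it was 74.2% in Sham-NS. Pathway genes past 2-fold over 5 classes numbered 26 for MI-NS against Sham-NS, but 12 and 10 with nuclei thinned to 500 and 1000 UMIs, 45 with a minimum of 20 UMIs and 87 with a minimum of 1. For MI-DAPA against MI-NS they numbered 18, but 9 by marker level, 5 and 7 thinned, and 30 and 85 with those minima. The shares over all measurable genes, given above, were counted in the main setting only. Of 364 alternative values 334 stayed within the counting interval or 1.5 times the main count, and 12 further ratios of single members moved beyond their interval, 9 of them with thinned nuclei. Scaling by TMM factors or DESeq2 size factors lowered every ratio of MI-NS against Sham-NS in a class, by 0.11 to 0.24 on the log2 scale over the 5 classes, and raised every ratio of MI-DAPA against MI-NS in cardiomyocyte-like nuclei by 0.26 and 0.25. Under them Hbegf in cardiomyocyte-like nuclei for MI-NS against Sham-NS was under 2-fold. Levels under about 50 UMIs are limited by depth.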

Other observations

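In a finer clustering at resolution 2.0, a small cluster had Schwann cell markers, with 18 nuclei in MI-DAPA, 10 in MI-NS and 20 in Sham-NS. Erbb3, which Schwann cells need for their survival, had 2 UMIs in MI-DAPA, 0 in MI-NS and 5 in Sham-NS there, or 145 CPM in MI-DAPA (17.6 to 524), 0 in MI-NS (0 to 487) and 353 in Sham-NS (115 to 824), with intervals that all overlapped. Erbb4 and Nrg1 had 0 UMIs in that cluster in each library.

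Of the other ligand genes of the family, Tgfa, the gene of transforming growth factor alpha, had 39 UMIs in named nuclei of MI-NS, 24 of them in mesothelial or epicardial-like nuclei (36.4 CPM, 23.3 to 54.2), a class that had few nuclei in the other libraries. Nrg3 had 0 UMIs in all 3 libraries, and Areg, Ereg and Epgn had 5, 9 and 11 UMIs over all barcodes.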
